A study of Mus musculus with 20 samples.

Results

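CD4 single-positive (CD4SP) thymocytes from mice labelled *Id3*-/- were compared with follicular helper T (TFH) cells from immunized wild-type mice, a pair for which the deposited table holds no test. Genes were included where the larger of the 2 group averages was 10 or more, which gave 14055 of the 39179 genes in the table, and 6 of the 20 libraries of the series belong to the pair. The libraries labelled *Id3*-/- (n = 3) are C57BL/6 thymocytes, sorted as CD4+TCRβ+CD8-, from 8-wk-old mice described as *Id3*-/- with no tissue-specific Cre. The TFH libraries (n = 3) are wild-type C57BL/6 splenic CD4 T cells of the CXCR5+CD44hi phenotype, collected after immunization with sheep red blood cells. Their titles call them Tfh and another of their labels Tfh1, and which is meant cannot be told from the sources used here. Their age is not given in the sources used here. Control CD4SP thymocytes (5 libraries, sorted as the *Id3*-/- thymocytes and also 8 wk old) are called wild type by the labels. The study calls its control thymocytes *Id3*+/- for the TCR profiles and littermate controls in the comparison with *Id2* *Id3* double-knockout thymocytes. Which of these applies to each library is not given in the sources used here, and control averages are given only for reference. Organ, genotype, immunization, sort and maturity all differ between the pair, so their parts in any difference cannot be told apart. In such bulk samples fewer cells of a type and less RNA per cell cannot be told apart either.

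E proteins are basic helix-loop-helix transcription factors that bind E-box sites in enhancers and promoters, and Id proteins pair with them and keep them off DNA. In the thymus, *Id3* is induced by pre-TCR and TCR signals and restrains E proteins as thymocytes pass selection. TFH cells are the CD4 T cells that enter B-cell follicles, guided by CXCR5, and help germinal center B cells through CD40 ligand, IL-21 and IL-4. BCL6 maintains this fate and ASCL2, itself a basic helix-loop-helix factor, induces CXCR5.

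Each value below is an average of DESeq-normalized counts over the libraries of a group, as the authors deposited it, and carries no error. No value per library was used, so no difference between the groups could be set against the spread between replicates and no test was run. The TCR profiles of the spleen and thymus groups are described as coming from 2 experiments with 3 mice in each, but which library came from which mouse or experiment is not given in the sources used here, so a batch could not be examined. Log2 ratios are the libraries labelled *Id3*-/- over TFH after 1 was added to each average, and folds are on the same scale. Values of different genes are not corrected for length and were compared only within a gene. All 37 genes of the mitochondrial genome are listed at 0 in all 5 groups, so a 0 in this table can be a value that was not measured.

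The average of *Id3* (chromosome 4 from 136143497 to 136145755, mm10) was 2649.7 normalized counts in the libraries labelled *Id3*-/-, 1777 in TFH cells and 1991 in control CD4SP cells. It was therefore not lower in the libraries that the label describes as lacking it. This is 1 value over the whole gene, and reads of a targeted allele that keeps some of its exons would count toward it, so the group is named below by its label only. Both groups of the pair held T cell receptor signalling genes at close averages, with 0 of 15 genes of the core TCR complex past 2-fold and a median log2 ratio of -0.12. *Cd3e*, a chain of the CD3 complex, averaged 8776 and 9526, and *Lck*, the kinase that starts TCR signalling, averaged 18233 and 17531. *Cd4*, on which both were sorted, averaged 12552 in the libraries labelled *Id3*-/- and 20145 in TFH cells.

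Of the 14055 genes, 1165 (8.29%) were at least 2-fold higher in the libraries labelled *Id3*-/- and 1504 (10.7%) were at least 2-fold higher in TFH cells. At 4-fold the counts were 417 (2.97%) and 504 (3.59%). The median log2 ratio over all genes was 0.0019, the middle 50% of genes lay between -0.37 and 0.33, and 9342 genes (66.5%) were within 1.5-fold. Genes with low averages passed 2-fold more often. Among 4143 genes with a larger average between 10 and 100, 14.8% were higher in the libraries labelled *Id3*-/- and 18.7% in TFH cells, whereas among 3642 genes of 1000 or more these shares were 4.50% and 6.04%. Just inside the limit of 10, *Trav3-4* averaged 10.02 and 9.72, and just outside it *Ranbp17* averaged 5.01 and 9.998, in the libraries labelled *Id3*-/- and TFH cells. These percentages are the background against which the gene lists below can be read. A gene near the limit passes it through whichever group is higher, so shares among low genes are no support for a direction.

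**Figure D1:**
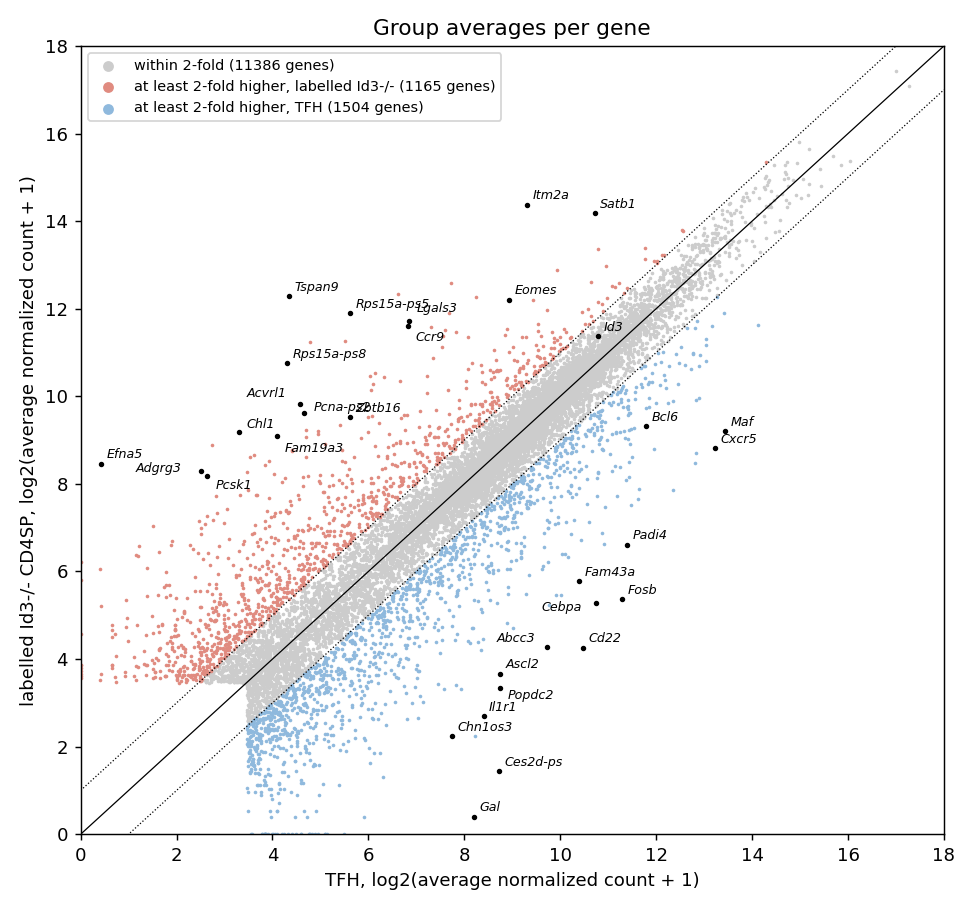
Group averages of 14055 genes, with TFH cells on the x axis and the libraries labelled Id3-/- on the y axis, both as log2(average normalized count + 1). Each point is a gene, the solid line marks equal averages and the dotted lines mark 2-fold, and the bulk of genes lies between the dotted lines while the named genes lie far from them, except Id3.

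The promoter sequences of 3 genes that stand for the pair are shown, because E and Id proteins act through E-boxes. *Ascl2* is an inducer of the TFH fate and was higher in TFH cells, and *Eomes* and *Efna5* were higher in the libraries labelled *Id3*-/-. The 250 bases before each RefSeq start (GRCm38.p6) were read 5′ to 3′ on the gene's strand, for *Ascl2* chr7:142969265-142969514 on the minus strand, for *Eomes* chr9:118477939-118478188 on the plus strand and for *Efna5* chr17:62881318-62881567 on the minus strand. Capitals mark matches to CAGCTG, which reads the same on both strands, or to CAGGTG and its complement CACCTG. The spellings differ from each other, so no stretch was counted more than once, and a match is a description of letters only.
Ascl2: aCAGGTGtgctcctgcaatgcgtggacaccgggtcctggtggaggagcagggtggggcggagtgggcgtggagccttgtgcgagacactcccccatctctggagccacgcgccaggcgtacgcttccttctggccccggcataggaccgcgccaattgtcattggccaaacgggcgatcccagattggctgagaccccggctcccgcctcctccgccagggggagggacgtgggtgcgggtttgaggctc
Eomes: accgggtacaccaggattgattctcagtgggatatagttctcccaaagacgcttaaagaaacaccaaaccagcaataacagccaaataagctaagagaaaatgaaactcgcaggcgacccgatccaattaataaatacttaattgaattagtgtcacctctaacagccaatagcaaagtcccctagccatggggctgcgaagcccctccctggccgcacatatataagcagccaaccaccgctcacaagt
Efna5: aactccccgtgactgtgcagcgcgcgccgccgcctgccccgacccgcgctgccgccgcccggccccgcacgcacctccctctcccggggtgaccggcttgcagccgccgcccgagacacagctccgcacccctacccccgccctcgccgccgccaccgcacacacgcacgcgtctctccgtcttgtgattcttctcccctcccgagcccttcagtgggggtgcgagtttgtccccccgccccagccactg
The *Ascl2* window held 1 CAGGTG, and the *Eomes* and *Efna5* windows held 0 matches. Of 22862 genes with 1 promoter in the RefSeq table, 27.4% held at least 1 match in such a window, and of the 7943 of them that passed the filter on averages 24.6% did. The share was 30.2% of 205 promoters of genes at least 4-fold higher in the libraries labelled *Id3*-/- and 38.5% of 244 promoters of genes at least 4-fold higher in TFH cells. Base composition of these windows was not matched, so the shares are given as a description.

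Among genes with a larger average of 100 or more, the largest log2 ratio toward the libraries labelled *Id3*-/- was that of *Efna5*, which encodes the ephrin-A5 ligand of Eph receptors. It averaged 351 normalized counts in the libraries labelled *Id3*-/-, 0.339 in TFH cells, and is listed at 0 in control CD4SP cells. *Efna5* lies on chromosome 17 from 62604184 to 62881317, and its log2 ratio of 8.04 depends on the 1 added to an average near 0. *Tspan9*, a tetraspanin gene on chromosome 6 from 127961396 to 128143594, averaged 4976 in the libraries labelled *Id3*-/-, 19.2 in TFH cells and 932 in control CD4SP cells, a log2 ratio of 7.94. For both genes the libraries labelled *Id3*-/- also held more than control CD4SP cells.

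Several other leading genes encode surface or secreted proteins. *Pcsk1*, a prohormone-cleaving protease, averaged 287 in the libraries labelled *Id3*-/- against 5.17 in TFH cells. *Fam19a3*, a small secreted protein gene, averaged 549 against 16.1. In control CD4SP cells they averaged 18.5 and 8.79, well under the libraries labelled *Id3*-/-. Other leading genes were present in control CD4SP cells as well. *Chl1*, a neural adhesion molecule of the L1 family, averaged 585 in the libraries labelled *Id3*-/-, 8.87 in TFH cells and 616 in control CD4SP cells. *Adgrg3*, an adhesion G protein-coupled receptor, averaged 315, 4.70 and 672 in the same order. *Acvrl1*, a type I receptor of the TGF-β family, averaged 899, 22.9 and 1799. *Acvrl1* was not high in every thymic group, since *Id2* *Id3* double-knockout CD4SP thymocytes (3 libraries, deleted by IL7R-Cre) averaged 25.5, with 68.4 for *Adgrg3* and 720.3 for *Chl1*.

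The pseudogenes *Rps15a-ps8*, *Rps15a-ps5* and *Pcna-ps2* also ranked among the 12 largest log2 ratios, at 6.44, 6.27 and 4.96. They share sequence with their parent genes, and RSEM can divide reads between such copies, so these values are uncertain. *Itm2a*, also among the 12, is described with the thymocyte genes. Of the parent genes, *Rps15a* averaged 9201 in the libraries labelled *Id3*-/- and 12926 in TFH cells, and *Pcna* averaged 2913 and 3247. Both parents thus had the opposite order to their pseudogenes, of which *Rps15a-ps5* averaged 3802 and 48.3 and *Rps15a-ps8* 1722 and 18.9.

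Toward TFH cells the largest log2 ratio was that of *Gal*, the gene for the neuropeptide galanin on chromosome 19 from 3409915 to 3414544. It averaged 294 normalized counts in TFH cells and 0.316 in the libraries labelled *Id3*-/-, a log2 ratio of -7.81, and control CD4SP cells held 1.04. *Ces2d-ps*, a carboxylesterase pseudogene, averaged 424 in TFH cells and 1.70 in the libraries labelled *Id3*-/-. *Cebpa*, a transcription factor best known in myeloid cells and hepatocytes, averaged 1716 and 37.6. In control CD4SP cells they averaged 1.17 and 6.49.

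The other genes of the 12 were of several kinds. *Il1r1*, the signalling receptor of interleukin-1, averaged 337 in TFH cells and 5.48 in the libraries labelled *Id3*-/-, and control CD4SP cells held 6.00. *Abcc3*, an organic anion transporter, averaged 843 and 18.3, and *Popdc2*, a cAMP-binding membrane protein, averaged 427 and 9.08. *Padi4*, an arginine deiminase, averaged 2690.4 in TFH cells and 96.6 in the libraries labelled *Id3*-/- (log2 ratio -4.79), and *Fam43a* averaged 1346 and 53.98 (-4.61). The antisense transcript *Chn1os3* averaged 212 and 3.74, and since the strand setting of the counting is not given, reads of its sense partner cannot be told apart from it. *Cd22* and *Fosb*, which complete the 12 genes, are described below with the B-cell and the TCR-induced genes.

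The TFH programme was held mainly by TFH cells. Of its 29 genes, 25 were at least 2-fold higher in TFH cells and 0 in the libraries labelled *Id3*-/-, with a median log2 ratio of -2.44 beside 0.0019 for all genes. *Cxcr5* was used to sort the TFH cells and is not a finding, and without it the count was 24 of 28 with a median of -2.42. The 29 genes summed to 28526 normalized counts in the libraries labelled *Id3*-/-, 110351 in TFH cells and 21388 in control CD4SP cells.

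Among transcription factors of this programme, *Bcl6* (chromosome 16 from 23965052 to 23988852), its central repressor, averaged 635 in the libraries labelled *Id3*-/- and 3543 in TFH cells, 5.58-fold higher in TFH cells, with 529.9 in control CD4SP cells. *Ascl2*, on chromosome 7 from 142966829 to 142969264, averaged 11.7 and 429, with 2.60 in control CD4SP cells. *Maf*, which drives *Il4* and *Il21*, averaged 589.6 and 11057, 18.7-fold higher in TFH cells, and 188 in control CD4SP cells. The libraries labelled *Id3*-/- lay between control CD4SP and TFH cells for these 3 genes, near the control average for *Bcl6*. *Tox2*, an HMG-box factor, had a log2 ratio of -4.34 (354 and 7173), and *Pou2af1*, a coactivator of octamer-binding factors, averaged 117 and 1883. *Nfatc1*, activated by calcium signals, averaged 3114 and 9176. *Batf*, an AP-1 family factor needed for TFH cells, was closer, at 532 and 1088 with 327 in control CD4SP cells, and *Irf4*, its partner, was within 2-fold at 744 and 1219.

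The effector cytokines of TFH cells followed the same direction. *Il21*, which acts on germinal center B cells, averaged 139.6 in the libraries labelled *Id3*-/- and 1551 in TFH cells, and control CD4SP cells held 109. *Il4*, which supports class switching, averaged 64.1 and 415, and 16.8 in control CD4SP cells. *Cd40lg*, the ligand for CD40 on B cells, averaged 987 and 2471 with 1203 in control CD4SP cells. *Sostdc1*, a secreted antagonist of BMP and Wnt signals, averaged 341 in the libraries labelled *Id3*-/-, 2269 in TFH cells and 3.01 in control CD4SP cells. *Angptl2*, an angiopoietin-like secreted protein gene, averaged 183, 2841 and 56.00 in the same order. For *Il4*, *Sostdc1* and *Angptl2* the libraries labelled *Id3*-/- were above control CD4SP cells and below TFH cells.

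Surface receptors of the programme showed a wider range. The inhibitory receptor *Pdcd1* averaged 956 in the libraries labelled *Id3*-/- and 5192 in TFH cells, and *Tigit*, another inhibitory receptor, averaged 272 and 2646. Control CD4SP cells held 448 of *Pdcd1* and 25.98 of *Tigit*. The sorted receptor *Cxcr5* averaged 451 in the libraries labelled *Id3*-/-, 9567 in TFH cells and 44.6 in control CD4SP cells. *Sh2d1a*, the SLAM-associated adaptor SAP, averaged 864 and 2671, and *S1pr2*, which confines cells to the germinal center, averaged 239 and 1334. *Il6ra* and *Il6st*, the chains of the IL-6 receptor, had log2 ratios of -1.61 and -1.07, the inhibitory receptor *Btla* one of -1.35 and *Cd200*, the ligand of an inhibitory receptor, one of -1.50.

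The log2 ratios of *Tbc1d4*, a Rab GTPase-activating protein gene, and of *Gpm6b*, a membrane proteolipid gene, were -2.92 and -2.85, and that of *Slamf6*, a SLAM receptor gene, was -2.39. *Izumo1r*, the folate receptor 4 gene, averaged 4948 and 9932, just past 2-fold. In contrast, *Icos*, the costimulator that TFH cells require, averaged 3372 in the libraries labelled *Id3*-/- and 3621 in TFH cells, a log2 ratio of -0.10, with 2144 in control CD4SP cells. *Cd84*, a SLAM receptor gene, was within 2-fold as well (1752 and 2789), and *Ppp1r14a*, a phosphatase inhibitor gene and the only member with a log2 ratio above 0, averaged 12.4 and 8.86.

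Genes that oppose the TFH fate or mark cells that have not adopted it were divided. Of 16, 6 were at least 2-fold higher in the libraries labelled *Id3*-/- and 1 in TFH cells, with a median log2 ratio of 0.26. *Bach2*, a repressor of effector differentiation, averaged 2959.6 in the libraries labelled *Id3*-/-, 473 in TFH cells and 4082 in control CD4SP cells. The T-zone homing receptor *Ccr7* averaged 6269, 1588 and 8653, and the IL-7 receptor gene *Il7r* averaged 4070.2, 1538 and 3997. For these 3 genes the libraries labelled *Id3*-/- were nearer to control CD4SP cells than to TFH cells. *Selplg*, the P-selectin ligand gene, had a log2 ratio of 1.13 and *Socs1*, a cytokine signalling inhibitor gene, one of 1.06. *Socs3*, a related inhibitor gene, was the exception and was higher in TFH cells (432 and 1281).

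The forkhead factors that restrain TFH cells were close in the pair. *Foxo1* averaged 2704 in the libraries labelled *Id3*-/-, 3225 in TFH cells and 4103 in control CD4SP cells, and *Foxp1* averaged 3497, 3103 and 4343. The quiescence factor *Klf2* averaged 3303, 3039 and 4467. Their log2 ratios were -0.25, 0.17 and 0.12, and control CD4SP cells held more of each than either group of the pair. *Prdm1*, the antagonist of *Bcl6*, was within 2-fold in the pair, at 94.7 and 128, and control CD4SP cells held less, at 38.3. The IL-2 pathway genes *Il2ra*, *Stat5a* and *Stat5b* had log2 ratios of 0.28, 0.40 and 0.24, the sphingosine receptor *S1pr1* one of -0.12 and the oxysterol receptor *Gpr183* one of -0.55.

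**Figure D2:**
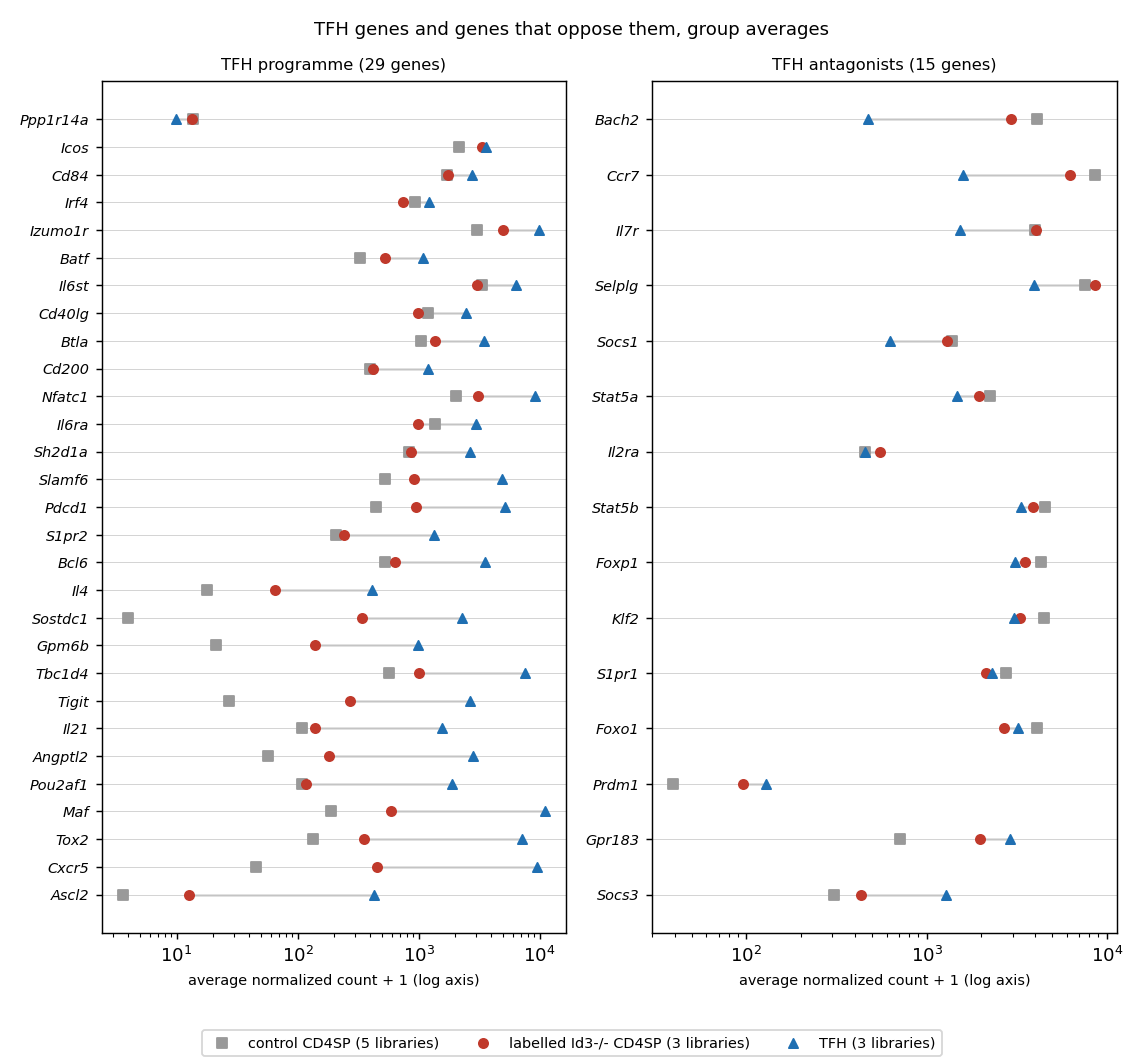
Group averages of 29 TFH programme genes (left) and 15 genes that oppose the TFH fate (right), as average normalized count + 1 on a log axis, with 1 symbol per group and a line joining the pair. TFH cells lie to the right of the libraries labelled Id3-/- for all of the left panel but Ppp1r14a, whereas in the right panel the order differs between genes.

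E and Id protein genes were mostly close. Of 9 that passed the filter, 0 were at least 2-fold higher in the libraries labelled *Id3*-/- and 3 in TFH cells, and the median log2 ratio was 0.12. *Tcf3* and *Tcf12*, the genes of the E proteins E2A and HEB, averaged 2881 and 2186 in the libraries labelled *Id3*-/- and 2068 and 1902 in TFH cells. *Tcf4*, which encodes E2-2, averaged 122 and 128. Among inhibitors, *Id2* (chromosome 12 from 25093799 to 25097140) averaged 1764 and 1628 with 2293 in control CD4SP cells, and *Id1* averaged 13.3 and 12.2. The 3 genes past 2-fold were basic helix-loop-helix genes outside these classes. *Bhlhe40*, a repressor gene of activated T cells, averaged 448 in the libraries labelled *Id3*-/-, 945 in TFH cells and 84.6 in control CD4SP cells. *Lyl1*, a factor of blood progenitors, averaged 9.37 and 105, and *Bhlhe41*, the paralog of *Bhlhe40*, 4.16 and 18.3. *Lyl1* and *Bhlhe41* passed the filter through TFH cells alone, so their direction is no support for a lean of the list.

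Thymocyte genes leaned toward the libraries labelled *Id3*-/-. Of 32 genes of immature and newly selected thymocytes, 11 were at least 2-fold higher in the libraries labelled *Id3*-/- and 1 in TFH cells, with a median log2 ratio of 0.56. *Cd4*, *Cd8a* and *Cd8b1* belong to the sorts, and without them the counts were 9 and 1 of 29. *Itm2a*, a membrane protein induced during positive selection, averaged 21218 in the libraries labelled *Id3*-/-, 636 in TFH cells and 17856 in control CD4SP cells. *Dntt*, which encodes the terminal transferase of V(D)J joining, averaged 307, 10.1 and 326, and *Ccr9*, a chemokine receptor of thymocytes and gut-homing cells, averaged 3100.3, 112 and 5827. In each the libraries labelled *Id3*-/- and control CD4SP cells were far above TFH cells.

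Some chromatin and transcription regulators of thymocytes were lower in TFH cells than in labelled *Id3*-/- or control CD4SP cells. *Satb1*, an organizer of chromatin in thymocytes, averaged 18628 in the libraries labelled *Id3*-/-, 1686 in TFH cells and 28784 in control CD4SP cells. *Sox4*, an HMG-box factor, averaged 2602, 268 and 4769.8, and *Lef1*, a partner of β-catenin, averaged 10714, 3500.2 and 14495. *Aqp11*, an aquaporin, had a log2 ratio of 4.47 (125 and 4.70). Other regulators of T-lineage development were within 2-fold. *Gata3* averaged 2268 and 1969, *Zbtb7b*, which encodes ThPOK, 4792 and 3228, *Tox* 2744 and 3886, and *Tcf7*, which encodes TCF1, 21798 and 27949. *Myb*, required in developing thymocytes, averaged 1614 and 1333, both above the 694 of control CD4SP cells. The recombinase genes *Rag1* and *Rag2* did not reach an average of 10 in either group.

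Innate-like T cell genes split into members far higher on either side. Of 32, 11 were at least 2-fold higher in the libraries labelled *Id3*-/- and 12 in TFH cells, and the median log2 ratio was 0.18. *Eomes*, a T-box factor of innate-like and memory T cells on chromosome 9 from 118478212 to 118486132, averaged 4727 in the libraries labelled *Id3*-/-, 486 in TFH cells and 37.2 in control CD4SP cells, 9.71-fold higher in the libraries labelled *Id3*-/- than in TFH cells. *Zbtb16* (chromosome 9 from 48654297 to 48836222), which encodes PLZF, the factor of invariant NKT cells, averaged 733, 48.2 and 116, a 14.9-fold difference within the pair. *Zbtb16* was higher still in double-knockout CD4SP thymocytes (3912) and in lymphomas of *Id2* *Id3* double-knockout mice (2211, 6 libraries), whereas *Eomes* averaged 138 and 37.01 there. The other T-box factor, *Tbx21*, which encodes T-bet, had the opposite order, at 88.2, 480.03 and 62.7. So *Eomes* and *Tbx21* were on opposite sides of the pair. *Tbx21*, like *Ifng* below, is a gene of type 1 helper cells, and the part of the label Tfh1 in these values was not tested.

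Cytotoxic and receptor genes of this list were divided in the same way. The perforin gene *Prf1* averaged 434 in the libraries labelled *Id3*-/-, 42.8 in TFH cells and 62.6 in control CD4SP cells, and granzyme A (*Gzma*) averaged 365, 42.9 and 25.2. Granzyme B (*Gzmb*) averaged 6.69, 49.4 and 48.9, and granzyme K (*Gzmk*) 57.1, 169 and 2.10. Among NK receptors, *Klra1* had a log2 ratio of 4.42, whereas *Klrb1c*, which encodes NK1.1, had one of -3.28 and *Cd160* one of -2.95. Reads of the Klra family may be shared between near-identical members. *Klrc2* averaged 21.5 in TFH cells and is listed at 0 in the libraries labelled *Id3*-/-. *Il4ra*, the IL-4 receptor gene, averaged 7586, 975 and 3182, higher in the libraries labelled *Id3*-/- than in TFH or control CD4SP cells.

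Some innate-like genes were close in the pair and higher in both than in control CD4SP cells. *Il2rb*, a receptor chain for IL-2 and IL-15, averaged 7477 in the libraries labelled *Id3*-/-, 6135 in TFH cells and 1559 in control CD4SP cells. *Cxcr6*, a tissue-homing receptor gene, averaged 577, 544 and 139, and *Nkg7*, a cytotoxic granule gene, 943, 646 and 159.8. *Egr2*, which TCR signals induce and which acts upstream of *Zbtb16*, was near 1094 and 1145 in the pair and 1173 in control CD4SP cells.

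The TCR genes of invariant NKT cells were examined beside *Zbtb16*. Of 5 that passed the filter 1 was at least 2-fold higher in the libraries labelled *Id3*-/- and 0 in TFH cells, with a median log2 ratio of 0.72. *Trav11* averaged 102 in the libraries labelled *Id3*-/-, 47.7 in TFH cells and 31.8 in control CD4SP cells, and its joining partner *Traj18* averaged 23.5, 13.9 and 11.6. The near-identical *Trav11d* is listed at 0 in both groups of the pair and averaged 18.5 in control CD4SP cells, so reads may be divided between the copies. The β-chain genes that pair with them, *Trbv13-2*, *Trbv1* and *Trbv29*, had log2 ratios of -0.09, 0.10 and 0.79. Genes of γδ T cells were at least 2-fold higher in the libraries labelled *Id3*-/- in 11 of 11 that passed the filter, with a median log2 ratio of 3.13 beside 0.0019 for all genes. Of these, *Trgv2*, *Tcrg-V4* and *Tcrg-V1* passed the filter through that group alone. The whole list summed to 3635 in the libraries labelled *Id3*-/-, 419 in TFH cells and 5227 in control CD4SP cells, and *Sox4*, a member that the thymocyte list also holds, took most of each sum. The constant gene *Tcrg-C2* averaged 193, 19.7 and 46.3, and *Tcrg-C1* averaged 126, 18.6 and 48.2. *Sox13*, a factor of γδ T cells that is also in the innate-like list, averaged 169, 18.4 and 127. Over the whole list of 15 genes in the table, 4 are listed at 0 in the libraries labelled *Id3*-/- and 1 in TFH cells.

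Interferon-stimulated genes leaned toward the libraries labelled *Id3*-/-. Of 41, 37 had a ratio above 1, 11 were at least 2-fold higher in the libraries labelled *Id3*-/- and 1 in TFH cells, with a median log2 ratio of 0.62. *Oas2*, an antiviral synthetase, averaged 1236 in the libraries labelled *Id3*-/-, 67.01 in TFH cells and 1056 in control CD4SP cells. *Ifi44* averaged 325, 47.7 and 228, and *Oasl1*, a translational regulator of the response, averaged 469, 90.6 and 333. In all 3 the libraries labelled *Id3*-/- were nearer to control CD4SP cells than to TFH cells. The factor *Irf1* averaged 2903 and 3137, and *Gbp3*, a guanylate-binding protein gene, was higher in TFH cells (128 and 353).

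**Figure D3:**
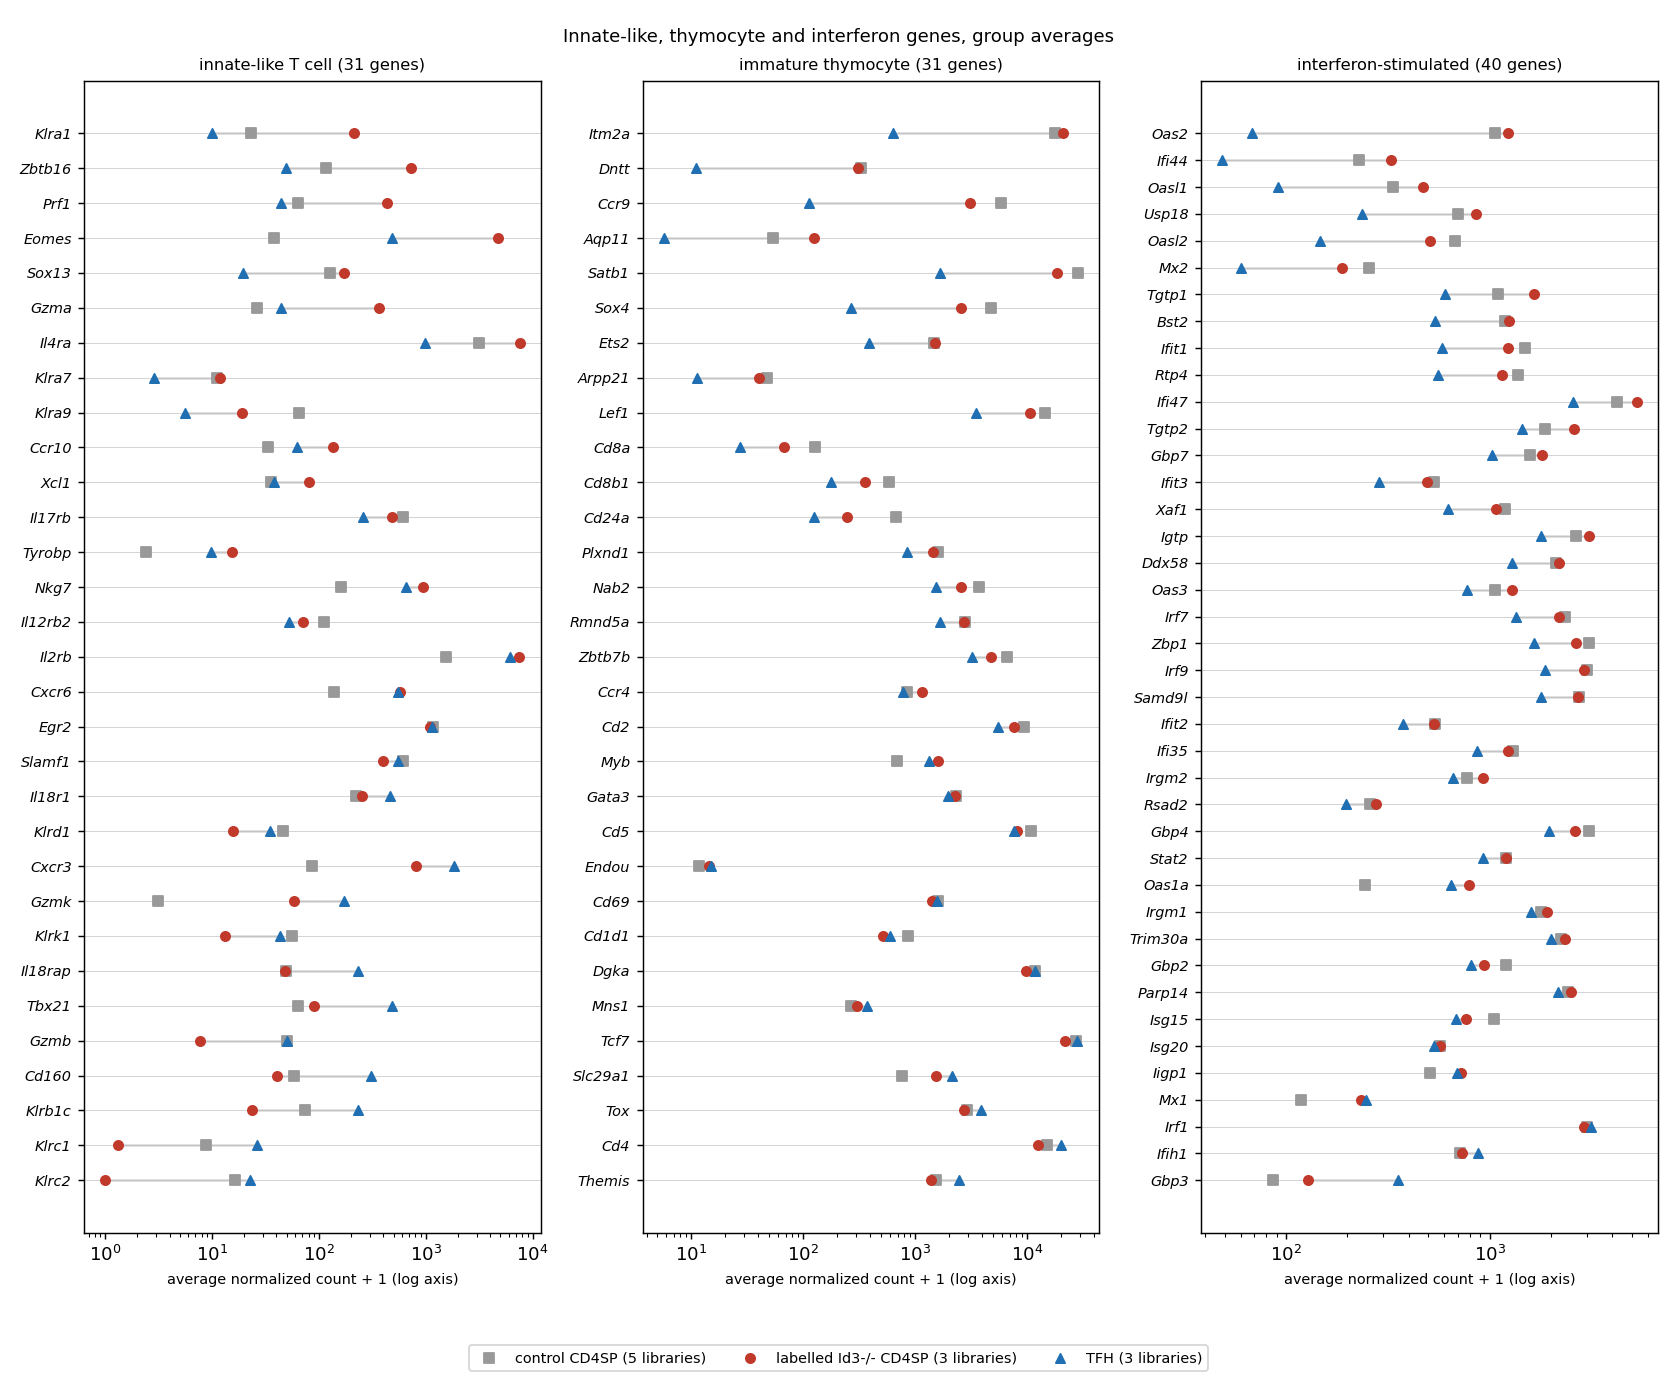
Group averages of 31 innate-like T cell genes, 31 immature thymocyte genes and 40 interferon-stimulated genes, as average normalized count + 1 on a log axis, 1 symbol per group, with a line joining the pair and genes ordered by log2 ratio. Of the 3 groups drawn, the libraries labelled Id3-/- lie farthest to the right for Eomes and Zbtb16, whereas for most thymocyte and interferon-stimulated genes at the top of their panels the libraries labelled Id3-/- and control CD4SP cells lie together, to the right of TFH cells.

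Effector and memory genes were mostly held by TFH cells, at 21 of 35 against 4, with a median log2 ratio of -1.55. *Cd44* belongs to the sort of the TFH cells, and without it the count was 20 of 34. *Ifng*, the cytokine of type 1 helper cells, averaged 71.1 in the libraries labelled *Id3*-/-, 328 in TFH cells and 6.81 in control CD4SP cells, and *Tnf* averaged 227, 1143 and 226. *Il10*, an immunoregulatory cytokine, averaged 13.8, 66.9 and 1.09, and *Il2* 13.2, 70.00 and 11.4. The chemokine gene *Ccl5* averaged 88.1 and 583, and *Anxa1*, an annexin gene of the glucocorticoid response, averaged 5.45 and 43.00. The 4 genes on the other side were *Lgals3*, *Prf1*, *Il13* and *Ccl4*. *Lgals3*, which encodes galectin-3, averaged 3367 in the libraries labelled *Id3*-/-, 115 in TFH cells and 122 in control CD4SP cells, and *Il13*, a type 2 cytokine gene, averaged 34.02, 2.83 and 10.8. The chemokine gene *Ccl4* averaged 39.8, 13.1 and 8.94.

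Costimulatory and checkpoint genes were higher in TFH cells in 9 of 29 and in the libraries labelled *Id3*-/- in 1, with a median log2 ratio of -0.58. *Ctla4*, an inhibitory receptor, averaged 394 in the libraries labelled *Id3*-/- and 2877 in TFH cells, and *Lag3*, which binds MHC class II, averaged 301 and 1761. The costimulator *Cd28* (6201 and 7156) and the TNF receptor family gene *Tnfrsf18* (1237 and 1249.6) were near equal. *Cd81*, a tetraspanin, was the member higher in the libraries labelled *Id3*-/- (1540.2 and 561), and *Havcr2*, which encodes TIM-3, had a log2 ratio of 0.75 at low averages. Of 8 genes for SLAM receptors and their adaptors, 4 were at least 2-fold higher in TFH cells and 0 in the libraries labelled *Id3*-/-, with a median of -0.88. *Slamf7* averaged 26.7 and 134, and *Ly9* averaged 2548 and 2503.

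Regulatory T cell genes gave 4 of 18 higher in the libraries labelled *Id3*-/- and 7 in TFH cells, with a median log2 ratio of -0.14. *Foxp3*, the lineage factor, averaged 481 in the libraries labelled *Id3*-/-, 1016 in TFH cells and 591 in control CD4SP cells. *Nt5e*, which encodes CD73, averaged 364, 2747 and 183, and *Klrg1*, a receptor of terminally differentiated cells, averaged 5.15, 111 and 3.84. On the other side, *Lrrc32*, which encodes the TGF-β docking protein GARP, averaged 965, 235 and 159, and the receptor *Gpr83* averaged 477, 144 and 1098. The list's members therefore did not share a direction.

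Early response genes of TCR signalling were higher in TFH cells in 13 of 34 and in the libraries labelled *Id3*-/- in 3, with a median log2 ratio of -0.55. *Fosb* and *Fos*, which encode AP-1 subunits, had the most negative log2 ratios of the list, at -5.93 and -4.13. *Fosb* averaged 40.1 in the libraries labelled *Id3*-/- and 2498 in TFH cells, *Fos* 415 and 7306, and the AP-1 genes *Junb* and *Jun* had log2 ratios of -2.48 and -2.16. The related *Jund* and *Fosl2* were within 2-fold, with *Jund* at 5845 and 7004 and *Fosl2* at 159 and 107. The phosphatase gene *Dusp1* averaged 968 and 7311, and *Tnfaip3*, which encodes the NF-κB inhibitor A20, averaged 1577 and 6819.99. The Egr genes did not share this order, since *Egr1* averaged 3988 and 2685 and *Egr3* 274 and 297. *Myc*, a driver of growth, was higher in the libraries labelled *Id3*-/- (2627) than in TFH cells (626) or control CD4SP cells (1576), and so were the nuclear receptor gene *Nr4a3* and the signalling inhibitor gene *Spry2* against TFH cells, with log2 ratios of 1.08 and 2.37.

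Homing and egress genes were higher in the libraries labelled *Id3*-/- in 9 of 30 and in TFH cells in 6, with a median log2 ratio of -0.02, and without *Cd44* the counts were 9 and 5 of 29 with a median of 0.08. *Itgb3*, the β3 integrin gene, averaged 4942 in the libraries labelled *Id3*-/-, 303 in TFH cells and 4995 in control CD4SP cells. *Gpr18*, a receptor of lipid ligands, averaged 1296, 259.9 and 1137. The α4 and β1 integrin genes *Itga4* and *Itgb1* had the opposite order, at 1675 and 2309 in the libraries labelled *Id3*-/- and 6200.1 and 8397 in TFH cells. *Cxcr4*, the receptor of CXCL12, averaged 1544 and 2633 with 474 in control CD4SP cells, and *Cxcr3*, a receptor for interferon-induced chemokines, 816 and 1843 with 85.3 in control CD4SP cells. For both chemokine receptors the libraries labelled *Id3*-/- lay between the other groups.

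Cytokine receptor genes gave 5 of 31 higher in the libraries labelled *Id3*-/- and 8 in TFH cells, with a median log2 ratio of 0.15. Beside *Il1r1*, the IL-9 receptor gene *Il9r* averaged 36.9 in the libraries labelled *Id3*-/- and 866 in TFH cells. Both chains of the interferon-γ receptor were higher in the libraries labelled *Id3*-/-, with *Ifngr1* at 2031 and 597 and *Ifngr2* at 1133 and 199.8. The IL-21 receptor gene *Il21r* was within 2-fold, at 3544 and 2062.

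Proliferation genes stayed within 2-fold. Of 46 cell cycle genes, 0 were past 2-fold in either direction and the median log2 ratio was 0.06, with *Mki67*, which encodes Ki-67, at 2576 and 2353, *Ccnb1*, a mitotic cyclin gene, at 233 and 421, and *E2f1*, an S-phase factor gene, at 333 and 180.2. Glycolysis genes were higher in the libraries labelled *Id3*-/- in 6 of 24 and in TFH cells in 1, with a median of -0.02. The enolase genes *Eno1* (14183 and 5912) and *Eno3* (479.8 and 148) were among the 6, as was the glucose transporter gene *Slc2a3* (1151 and 522), while *Aldoc*, an aldolase gene, was higher in TFH cells (30.2 and 116). Quiescence and glucocorticoid response genes gave 3 of 31 in each direction with a median of -0.07. That is 9.68% each way, near the 8.29% and 10.7% of all genes toward the libraries labelled *Id3*-/- and TFH cells. Of the members named next, *Cdkn1a* passed the filter through TFH cells alone. The Krüppel-like factor gene *Klf4* (42.99 and 965), the p21 gene *Cdkn1a* (9.41 and 55.6) and *Klf6* (788 and 2806) were higher in TFH cells, and *Bach2*, the PI3-kinase inhibitor gene *Pik3ip1* (2269 and 795) and *Txnip* (9627 and 4482), an inhibitor gene of glucose uptake, in the libraries labelled *Id3*-/-.

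**Figure D4:**
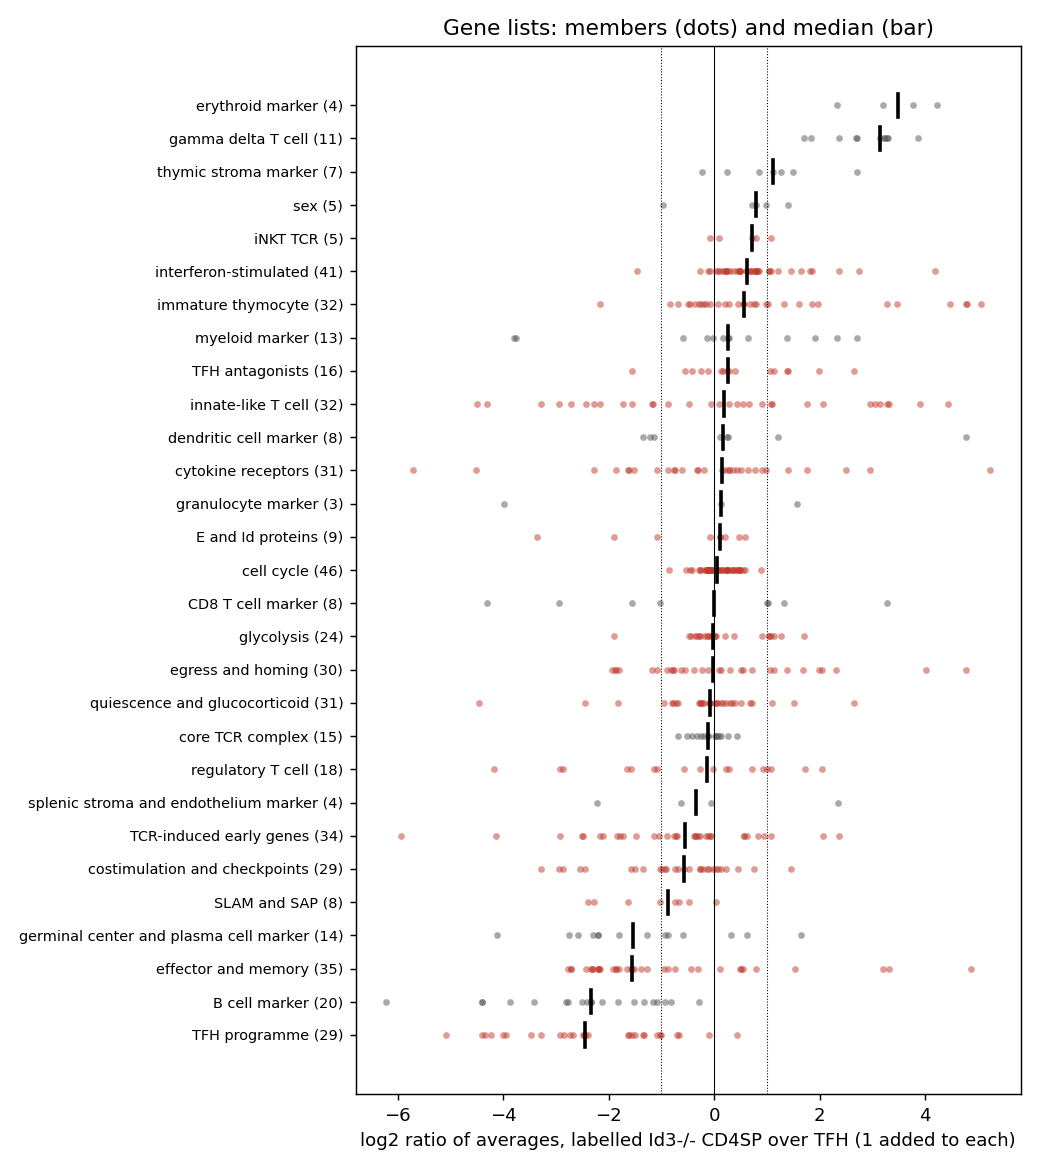
Log2 ratios of averages, libraries labelled Id3-/- over TFH cells, for the members of 29 gene lists that passed the filter (dots, with their number in brackets) and the median of each list (bar), with dotted lines at 2-fold. Red dots are biology lists and grey dots are markers of other cells or checks, and the lists run from a median of -2.44 for the TFH programme to 3.48 for 4 erythroid markers.

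Markers of other cells were measured because a sort can hold some of them. B-cell markers were higher in TFH cells in 17 of 20 and in the libraries labelled *Id3*-/- in 0, with a median log2 ratio of -2.33. *Pax5*, the B-lineage factor, averaged 2.10 in the libraries labelled *Id3*-/-, 64.1 in TFH cells and 4.22 in control CD4SP cells. *Cd22*, an inhibitory B-cell lectin, stood apart from it, at 18.1, 1421 and 15.8. The whole list of 21 genes summed to 5629 in the libraries labelled *Id3*-/-, 16636 in TFH cells and 2141 in control CD4SP cells, with 0 genes listed at 0 in either group of the pair. Of these sums the member *Ighm* alone gave 3811, 10902 and 1183, so they say little about the other members. The part of B-cell RNA in the values of the TFH programme was not tested, and *Pou2af1*, *Bcl6* and *S1pr2* are also expressed by B cells.

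Germinal center and plasma cell markers gave 8 of 14 higher in TFH cells and 1 in the libraries labelled *Id3*-/-, with a median log2 ratio of -1.54. *Jchain*, the joining chain of secreted IgM and IgA, averaged 118 in the libraries labelled *Id3*-/- and 415 in TFH cells, with 2.53 in control CD4SP cells. The switched heavy chain gene *Ighg2c* was the member higher in the libraries labelled *Id3*-/-, at 230.1 and 72.7, and is listed at 0 in control CD4SP cells. *Igkc*, the κ light chain constant gene, averaged 659, 1669.6 and 9.41, and *Ighm*, the μ heavy chain gene, averaged 3811, 10902 and 1183. Immunoglobulin transcripts were thus present in both groups of the pair above control CD4SP cells, whereas *Pax5* in the libraries labelled *Id3*-/- was not above control. The 16 genes of this list in the table summed to 2518 in the libraries labelled *Id3*-/-, 3022 in TFH cells and 1077 in control CD4SP cells. Of these sums the member *Xbp1* alone gave 1774, 1154 and 985, so they say little about the other members.

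Erythroid markers leaned toward the libraries labelled *Id3*-/-, and myeloid markers were divided between the groups. The 4 globin genes that passed the filter were all at least 2-fold higher there and passed it through that group alone, with *Hbb-bs* at 62.7 in the libraries labelled *Id3*-/-, 2.41 in TFH cells and 17.3 in control CD4SP cells. Among myeloid markers 4 of 13 were higher in the libraries labelled *Id3*-/- and 2 in TFH cells, with a median log2 ratio of 0.27. That sign rests on low averages, since the 3 with a larger average of 100 or more, *Cybb*, *Hmox1* and *Cst3*, were all lower in the libraries labelled *Id3*-/- than in TFH cells, with a median of -3.76. The complement gene *C1qb* averaged 24.5, 2.89 and 1.77, and the lysozyme gene *Lyz2* 65.1, 12.2 and 3.82, whereas *Cybb*, a subunit gene of the phagocyte oxidase, averaged 43.9, 625 and 6.50. *Adgre1*, which encodes F4/80, and *Cd14* did not reach an average of 10 in either group. Summed over the whole lists, 9 erythroid markers came to 224, 35.1 and 54.99, and 19 myeloid markers to 1278, 2106 and 984, in the libraries labelled *Id3*-/-, TFH and control CD4SP cells. Of the myeloid sums *Cst3* alone gave 877, 961 and 801 in the same order.

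The remaining marker lists were small. Of 3 granulocyte genes that passed the filter 1 was higher on each side, and *S100a9* averaged 14.8 in TFH cells and is listed at 0 in the libraries labelled *Id3*-/-. Dendritic cell markers gave 2 of 8 higher in the libraries labelled *Id3*-/- and 3 in TFH cells, the former being *Ccr9* and *Bst2*, which thymocytes and interferon responses also use. Thymic stroma markers gave 4 of 7 and 0, with *Aire*, the factor of medullary epithelium, at 29.1 and 9.69 and *Epcam* at 146 and 67.00. Splenic stroma and endothelium markers gave 1 of 4 in each direction, and CD8 T cell markers, *Eomes* among them, 4 of 8 in each direction, or 2 and 4 of 6 with a median of -1.29 without *Cd8a* and *Cd8b1*. The medians of these 5 whole lists, in the order given, were 0.12, 0.17, 1.11, -0.34 and -0.0089. For γδ genes too, the part of other cells in the values above was not tested.

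**Figure D5:**
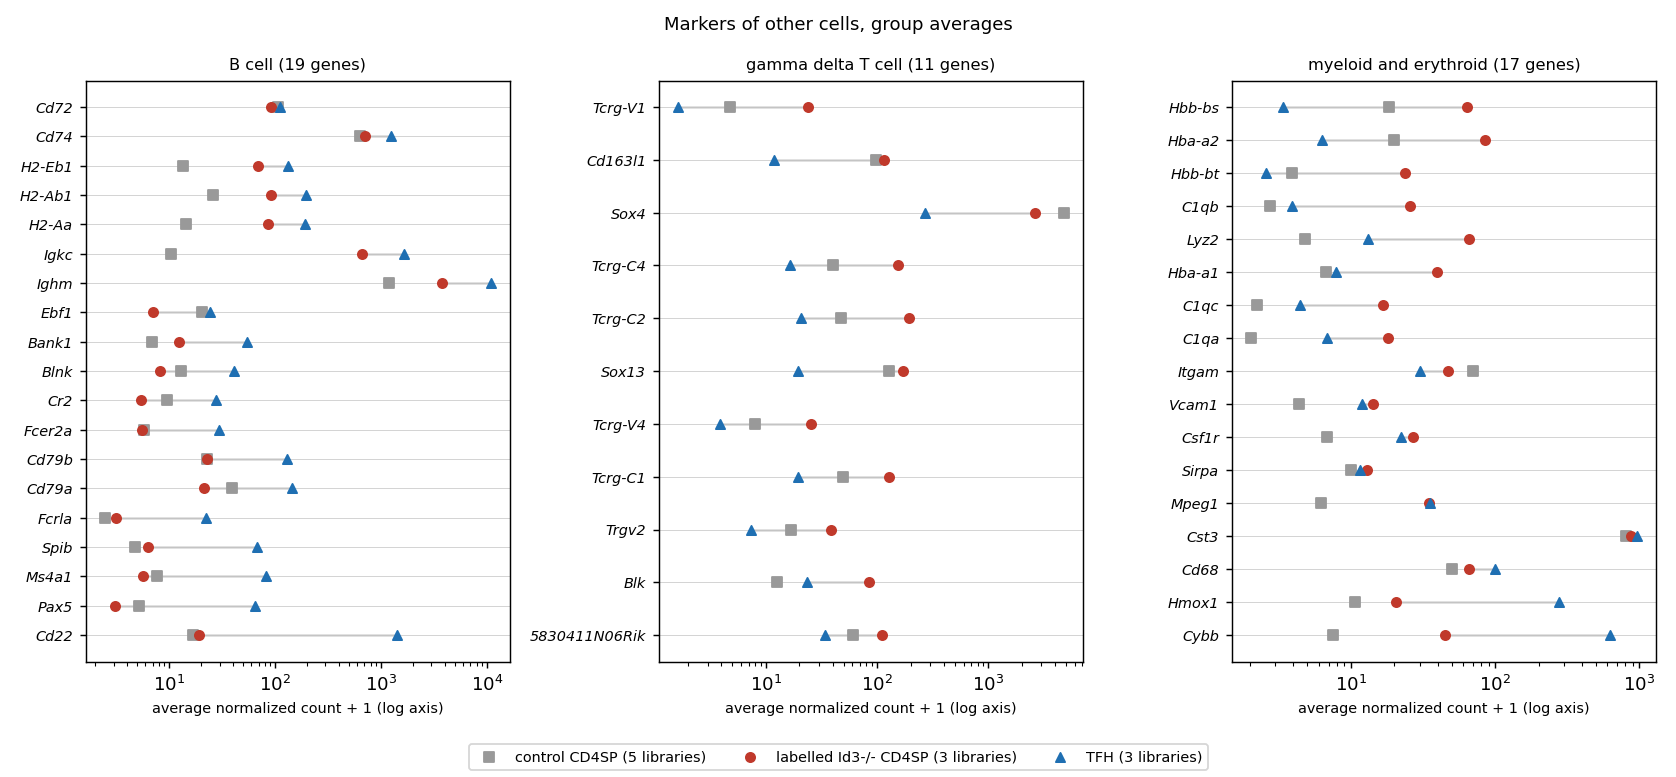
Group averages of 19 B-cell, 11 γδ T cell and 17 myeloid and erythroid markers that passed the filter, as average normalized count + 1 on a log axis, 1 symbol per group, with a line joining the pair. TFH cells hold the largest of the 3 averages for all 19 B-cell markers, and the libraries labelled Id3-/- lie to the right of TFH cells for all 11 γδ genes and the 4 globin genes.

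The sex of the mice is not given in the sources used here, and the groups were not alike in sex-linked transcripts. *Xist*, transcribed from the inactive X chromosome, averaged 5059.97 in the libraries labelled *Id3*-/-, 9909 in TFH cells and 10461 in control CD4SP cells. The Y-linked *Ddx3y* averaged 1402, 533 and 663, and *Uty*, *Eif2s3y* and *Kdm5d* had log2 ratios of 0.72, 0.78 and 0.98. Of 5 such genes that passed the filter 1 was at least 2-fold higher in the libraries labelled *Id3*-/- and 0 in TFH cells, with a median log2 ratio of 0.78. Each group thus held transcripts of both kinds. Without the genes of chromosomes X and Y, 1128 genes were at least 2-fold higher in the libraries labelled *Id3*-/- and 1450 in TFH cells.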

How the data were processed

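RNA was sequenced from strand-specific libraries on an Illumina HiSeq instrument. The authors used OSA within Array Studio to trim reads and align them to mm10, then RSEM for quantification and DESeq for normalization between libraries. For all of them the version is not given in the sources used here. As deposited, the signal is 1 average of normalized counts per gene and group, in 1 table of 39179 genes. The table also holds fold changes, p-values and false discovery rates of 4 comparisons with control CD4SP cells, which were not used. It holds 0 columns of values per sample, so no test, error or interval was possible, and the depth of each library is unknown. The averages summed to 13940752 in the libraries labelled Id3-/- and 13386015 in TFH cells, and these sums are not depths.

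All 20 libraries were placed in 5 groups from the sample labels. Genes were kept at a larger average of 10 or more in the pair, 1 was added to each average, and the log2 ratio was taken. A gene was counted as higher at 2-fold. Symbols matched 13862 of the 14055 kept genes, and positions are those of GENCODE M21. The members and the 29 lists were chosen with earlier results of these data known, so they give no independent support for a direction. Named genes are the 12 largest and 12 smallest log2 ratios among genes with a symbol and a larger average of 100 or more, leaving out TCR and immunoglobulin segments, small RNAs and predicted genes, together with members of the TFH, antagonist, E and Id, invariant NKT and sex lists, up to 3 at either end of every other list, and genes that the study names. A few genes that this rule takes are not reported here by name, though they count in the lists. Further members of the lists were named for their known role. The counting was tested on simulated averages. Alternatives changed the constant added, the centring, the scaling, the filter, the gene set and the fold. Python 3.11.15, numpy 2.4.6, pandas 2.3.3 and matplotlib 3.10.9 were used.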

Additional observations from a re-analysis of the deposited data

How the results depend on the processing

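At 4-fold, 417 genes were higher in the libraries labelled Id3-/- and 504 in TFH cells, in place of 1165 and 1504 at 2-fold. With a larger average of 100 or more the counts were 553 and 729, and with no filter on low averages 2050 and 3212. Under the other 6 alternatives, which were 0.1 or 10 added, median centring, scaling to the same sum, leaving out chromosomes X and Y, and leaving out TCR and immunoglobulin segments, each count stayed within 1.5 times its value. They ranged from 833 to 1211 and from 1077 to 1609. The share of genes past 2-fold that were higher in the libraries labelled Id3-/- was 43.6%, and 40.1% after scaling to the same sum. Among list medians and genes past 2-fold as reported, 0 changed sign under the alternatives run for them. Medians under 2-fold changed sign in 8 cases. With a larger average of 100 or more the myeloid median went from 0.27 to -3.76 and the homing one from -0.02 to 0.12. Without chromosomes X and Y homing was 0.08 and cytokine receptors -0.02 (0.15 before). With no filter the medians of E and Id proteins (0.12 before), cytokine receptors and granulocyte markers (0.12 before) were -0.23, -0.24 and -0.69. With 10 added the CD8 T cell median was 0.03. Of 228 list medians under alternatives 11 moved by more than 1.5-fold, and of 2044 gene log2 ratios 71 did, 63 of them with 10 added. Efna5 moved from 8.04 to 5.13 and Gal from -7.81 to -4.88 with 10 added. No granulocyte or erythroid gene reached 100, so their medians under that filter were not computed. The invariant NKT TCR list had no median without TCR segments, and the sex list none without chromosomes X and Y.

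Leaving out single libraries was not possible, since the table holds averages per group. No paired analysis was possible because the columns are averages and the comparison comes from no test. Errors, outlying libraries and batches within a group could not be examined.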

Other observations

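Ribosomal protein genes, which were in none of the lists and were looked at after their values had been seen, leaned one way by less than 2-fold. Of 85 that passed the filter, 83 had a larger average in the libraries labelled *Id3*-/- than in TFH cells, with a median log2 ratio of 0.56, but only 1 was at least 2-fold higher there and 1 in TFH cells. Their averages summed to 1084496 normalized counts in the libraries labelled *Id3*-/- (7.78% of the column), 734883 in TFH cells (5.49%) and 885280 in control CD4SP cells (6.58%). *Rps12* was the exception in TFH cells (0.434 and 28.9), and *Rps13* was the gene past 2-fold in the libraries labelled *Id3*-/- (109.9 and 49.4). *Rps12* passed the filter through TFH cells alone and averaged 54.5 in control CD4SP cells, so its direction is no support for a difference. Ribosomal protein pseudogenes gave 19 of 95 at least 2-fold higher in the libraries labelled *Id3*-/- and 0 in TFH cells, with a median of 0.52. RSEM can divide reads between these copies and their parents, so single copies and single parent genes are uncertain. Of 38 histone genes, 4 were higher in the libraries labelled *Id3*-/- and 1 in TFH cells, with a median of -0.09, beside 8.29% and 10.7% of all genes.

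Immunoglobulin variable genes were chosen in the same way. The 103 Igkv genes of the table summed to 330.4 in the libraries labelled *Id3*-/-, 856.5 in TFH cells and 14.9 in control CD4SP cells, and the 108 Ighv genes to 226.5, 558.9 and 30.4. Of 31 Igkv genes that passed the filter, 22 were at least 2-fold higher in TFH cells and 7 in the libraries labelled *Id3*-/-. *Igkv8-24* averaged 44.3 in TFH cells and is listed at 0 in the libraries labelled *Id3*-/-, whereas *Igkv8-19* averaged 13.5 in the libraries labelled *Id3*-/- and is listed at 0 in TFH cells. Of 24 Ighv genes, 17 and 3 were past 2-fold in these directions, and *Ighv1-74* averaged 24.3 in the libraries labelled *Id3*-/- and 0.578 in TFH cells. The variable genes named here passed the filter only through the group where they were higher. The Igkv and Ighv counts are therefore no support for a direction.

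T cell receptor variable genes were close by comparison. Of 20 Trbv genes 0 were past 2-fold, and of 94 Trav genes 7 were higher in the libraries labelled *Id3*-/- and 2 in TFH cells. Over all genes the shares past 2-fold in these directions were 8.29% and 10.7%. The Trav genes include duplicated copies that share reads, such as *Trav4d-3* and *Trav4n-3*, which were listed at the same averages (34.8 in the libraries labelled *Id3*-/- and 13.98 in TFH cells). As shares of all Trbv counts, *Trbv19* made up 9.68% in the libraries labelled *Id3*-/- and 5.22% in TFH cells, and *Trbv3* 7.24% and 11.7%.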
